A study of Mus musculus with 20 samples.

Results

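The ribosomal protein pseudogenes of the mouse hippocampus were taken from a table of read counts per gene. They are the genes annotated as pseudogenes whose names give a ribosomal protein gene followed by ps, in nearly all with a number, such as Rps13-ps1 or Rpl39-ps, and 134 of the 25190 genes in the table met this rule. Each was related to the gene named before the ps, called its parent here. Of the members, 78 are copies of large subunit (Rpl) genes and 56 of small subunit (Rps) genes. They name 51 parents, of which 50 are protein coding, and Rps4l is itself annotated as a pseudogene. A further 5 genes with such names carry another gene type and were left out.

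The 20 libraries came from wild-type male C57BL/6JOlaHsd mice aged 4 months, 5 libraries in each of 4 groups. All mice received an infusion into the dorsal hippocampus through cannulas and were behaviourally tested, and tissue was taken 24 hours after the last test. The infusion was artificial cerebrospinal fluid in the Vehicle group. In Control it held small RNAs (sRNAs) pooled from post-mortem hippocampi of control individuals, and in Pool 1 and Pool 2 sRNAs pooled from 2 cohorts of patients with schizophrenia. The study asked whether patient sRNAs impair cognition in the recipient mouse, and the RNA sequencing compared gene expression between these groups. The design text gives the tissue as CA1 and the sample labels as hippocampus. Each sRNA preparation is a pool of several people, so differences between donors cannot be told apart from the pool. The labels do not say that each library is a separate mouse, so p-values measure the spread between these samples, which may be technical. In bulk tissue, fewer cells of a type and less RNA per cell cannot be told apart.

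Ribosomal proteins assemble with ribosomal RNA into the small subunit, which decodes the messenger RNA, and the large subunit, which joins amino acids. Their messenger RNAs are short, abundant in every cell and, in mammals, have been copied back into the genome many times by the machinery of transposable elements. Such processed pseudogenes lack introns, lie apart from the parent and mostly have no promoter of their own. A short read from a copy can therefore be the same, base for base, as a read from the parent, and such a read has more than 1 best placement in the genome.

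The sequences show how little separates copy from parent. All 134 members were matched to transcripts of GENCODE release M21, build GRCm38. Over their aligned stretch they were a median 98.5% identical to a transcript of the parent, with a range from 64.7 to 100%, and 10 members had no difference. An open reading frame as long as the protein of the parent was present in 81 members. Of the 50-base windows of a member, about the length of a read, a median 37.4% occurred in no other annotated transcript. No window was unique in 17 members.

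Rps16-ps2 is shown because it has no base that differs from Rps16, which encodes a small subunit protein. All of its 441 bases match. What sets it apart is the absence of introns, since it runs through 4 junctions of the 5 exons of Rps16-201. Of its windows, 22.4% cross such a junction and occur in spliced transcripts elsewhere but inside no single exon, and the other 77.6% also lie inside an exon of another gene. The stretches around 2 of these junctions lie on the minus strand at chr5:129128328-129128407 and chr5:129128231-129128310, and capitals mark the 2 bases on either side of the junction.
Rps16-ps2, exons 2 and 3: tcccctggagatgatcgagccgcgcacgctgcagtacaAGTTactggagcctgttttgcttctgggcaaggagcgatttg
Rps16-ps2, exons 3 and 4: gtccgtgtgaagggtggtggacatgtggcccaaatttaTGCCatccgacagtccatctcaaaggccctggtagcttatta

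The next 3 copies are shown because their counts fell into separate levels between libraries while only a few bases distinguish them from the parent. Rps13-ps1, on the plus strand of chromosome 8, carries 2 substitutions over its 522 aligned bases, T442C and A460G. Here and below the base of the parent comes first, positions count from 1 at the 5′ end of the pseudogene, and capitals mark the differing bases. The stretch is chr8:87048104-87048174.
Rps13-ps1: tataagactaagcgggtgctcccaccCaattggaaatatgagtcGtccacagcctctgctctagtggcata
Rps13: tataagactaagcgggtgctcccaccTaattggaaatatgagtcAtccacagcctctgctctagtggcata

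Rpl3-ps1, on the plus strand of the X chromosome, matches Rpl3 at 1208 of 1210 bases and differs at C58A and T787C. These stretches are chrX:13202588-13202668 and chrX:13203317-13203397, each followed by the same stretch of Rpl3.
Rpl3-ps1, C58A: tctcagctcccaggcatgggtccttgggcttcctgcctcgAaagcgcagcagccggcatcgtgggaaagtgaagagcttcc
Rpl3: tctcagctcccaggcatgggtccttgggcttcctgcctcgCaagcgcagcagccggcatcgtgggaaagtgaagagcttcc
Rpl3-ps1, T787C: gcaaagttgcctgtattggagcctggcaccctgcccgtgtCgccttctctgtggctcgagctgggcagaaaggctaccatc
Rpl3: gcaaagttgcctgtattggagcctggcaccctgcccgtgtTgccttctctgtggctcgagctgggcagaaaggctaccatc

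Rpl34-ps1, on the plus strand of chromosome 6, matches Rpl34 at 352 of 354 bases, with T132C and C318G. Each of its windows also lies inside an exon of another gene, so none is unique. The stretches are chr6:71124701-71124781 and chr6:71124897-71124957.
Rpl34-ps1, T132C: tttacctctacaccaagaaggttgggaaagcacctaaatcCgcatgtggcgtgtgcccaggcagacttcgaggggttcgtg
Rpl34: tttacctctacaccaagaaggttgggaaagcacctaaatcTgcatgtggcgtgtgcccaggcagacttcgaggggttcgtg
Rpl34-ps1, C318G: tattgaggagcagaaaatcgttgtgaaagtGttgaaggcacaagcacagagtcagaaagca
Rpl34: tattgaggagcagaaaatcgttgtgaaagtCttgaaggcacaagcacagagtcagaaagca

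A further 3 pairs are shown for members with a high count or a call in several comparisons. Rpl19-ps11 differs at G191A within chr8:19493086-19493166, Rps24-ps3 at G360T and C380T within chrX:79195386-79195446, and Rpl14-ps1 at C420T and A423G within chr7:45325344-45325414, all on the plus strand. Rps24-ps3 also carries C207T and G273C, and Rpl14-ps1 C566T and A567G, outside these stretches.
Rpl19-ps11: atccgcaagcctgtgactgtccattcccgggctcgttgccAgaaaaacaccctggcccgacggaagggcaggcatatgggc
Rpl19: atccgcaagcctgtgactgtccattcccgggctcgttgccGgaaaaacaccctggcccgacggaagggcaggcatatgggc
Rps24-ps3: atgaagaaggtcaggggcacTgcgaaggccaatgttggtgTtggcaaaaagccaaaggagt
Rps24: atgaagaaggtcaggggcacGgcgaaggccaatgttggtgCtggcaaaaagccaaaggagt
Rpl14-ps1: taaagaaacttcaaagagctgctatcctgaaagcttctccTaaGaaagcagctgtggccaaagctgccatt
Rpl14: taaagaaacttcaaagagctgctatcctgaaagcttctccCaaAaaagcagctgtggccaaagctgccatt

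Most ribosomal protein pseudogenes were counted at a very low level. Libraries held 20588280 to 25543939 counts. The mean normalized count over the libraries was at least 10 for 31 members, from 1 to 10 for 70 and below 1 for 33, with a median of 2.98 and a range from 0.487 to 175. The parents had a median of 2121 and a range from 57.8 to 5358. Between 87 and 122 members had at least 1 count in a given library. Absence of counts in the low members was therefore not distinguishable from a low level at this depth.

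The highest member was Rpl14-ps1, at chr7:45324965-45325617, a copy of the gene of a large subunit protein, with a mean normalized count of 175. Rpl3-ps1 followed at 105, a mean raised by a few libraries whose counts are given below. Rpl3 encodes a large subunit protein near the site where amino acids are joined. In CPM, the counts of a gene relative to the library total scaled by its normalization factor, per kilobase of annotated exon, the level of the members with a mean normalized count of 10 or more was 0.795 to 40.6% of the parent's, with a median of 6.23%, leaving out the 2 copies of Rps10. Rps24-ps3 was highest on this scale, at 11.1 CPM per kilobase against 27.4 for Rps24, a small subunit gene. The scale depends on the annotation, which gives Rps24 6256 bases of exon over all its transcripts and Rps24-ps3 402. In CPM, without division by length, Rps24-ps3 stood at 2.61% of Rps24, below Rpl14-ps1 at 6.47%, Rps16-ps2 at 4.57% and Rpl36a-ps2 at 4.15% of their parents. Per kilobase, Rpl36a-ps2 reached 21.4% of the level of Rpl36a and Rpl14-ps1 16.4% of that of Rpl14.

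Both copies of Rps10 were above it per kilobase but below it in CPM. Rps10-ps1 was at 3.63 CPM per kilobase, Rps10-ps2 at 1.43 and Rps10, the gene of a small subunit protein, at 1.08. In CPM the copies stood at 72.1% and 28.4% of Rps10. The annotation gives Rps10 2311 bases of exon and the copies 495 and 496. Rps10 had 37 to 80 counts per library, and its mean normalized count of 57.8 was the lowest of the 50 parents.

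Members with higher counts had fewer unique windows. The median share of unique windows was 12.3% in the 31 members with a mean normalized count of 10 or more and 46.3% in the other 103. No unique window was present in 10 of the 31 and in 7 of the 103. These 10 nevertheless had mean normalized counts of up to 61.2, and 7 of them held windows found elsewhere only across an exon junction. The remaining 3, Rps23-ps1, Rpl34-ps1 and Rpl28-ps1, had every window inside an exon of another gene. Some window found elsewhere only across a junction was present in 19 of the 31 and in 15 of the 103, at most 32.6% of the windows in the 31 (Rpl14-ps1) and 5.05% in the others. These shares describe annotated transcripts and not the whole genome, and the part of read placement in the counts was not tested.

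**Figure D1:**
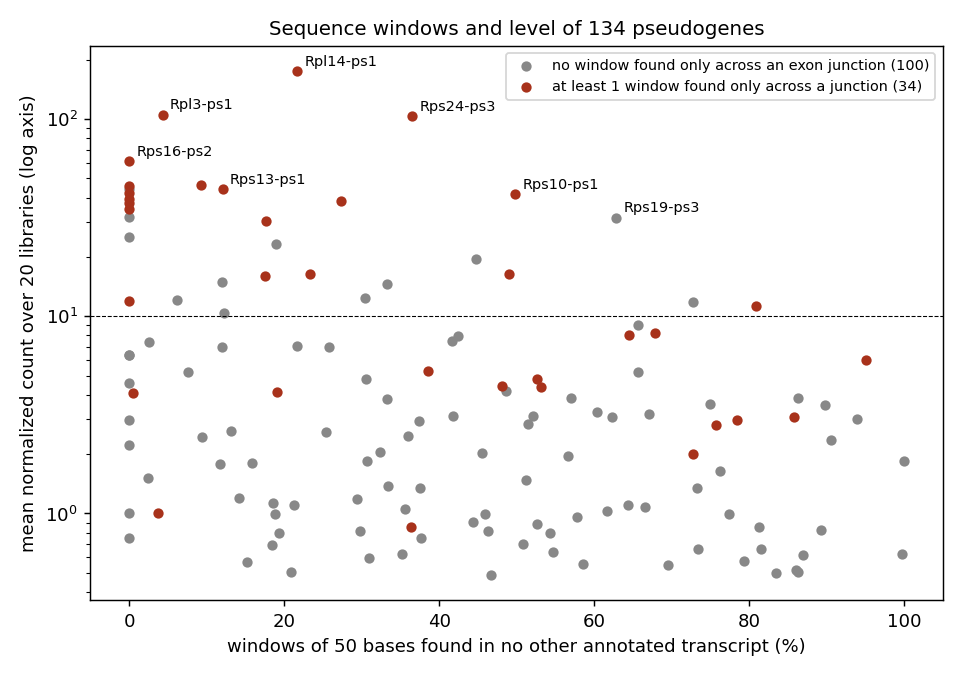
Share of unique 50-base windows of each pseudogene (horizontal axis, percent) against its mean normalized count over 20 libraries (vertical axis, log scale), with members that hold windows found elsewhere only across an exon junction marked. Of the 17 members without a unique window, 10 lie at a mean normalized count of 10 or more.

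By position, 87 members lie outside other genes, 28 on the strand opposite another gene, 16 in an intron and 3 in an exon of a gene on the same strand. Among the 31 with a mean normalized count of 10 or more the numbers were 18, 8, 4 and 1. Counts of the 13 that overlap another gene may include reads of that gene. Rpl36a-ps2 lies in an intron of Ddah1, Rps15a-ps6 in one of Nudcd3 and Rps19-ps6 in one of Tecpr2. Which strand was counted is not given in the sources used here.

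The 31 members varied more between libraries than their parents did. The edgeR dispersion, a measure of the variation beyond counting noise, had a median of 0.0855 in the members and 0.0261 in the parents. Each of the 31 had a higher dispersion than its own parent, and 30 a higher SD of log2 CPM, a measure that includes counting noise. The highest CPM was a median 4.08 times the lowest across libraries for the 30 members other than Rps13-ps1, and 1.83 times for the parents, with a maximum of 2.53 in the parents. This ratio was below 2 in Rpl14-ps1 (1.84) and Rps19-ps3 (1.93) and in no other of the 30. It reached 66.0 in Rps13-ps2, 41.3 in Rpl34-ps1, 19.5 in Rps15a-ps6 and 12.6 in Rpl3-ps1. Lower counts vary more by sampling alone, which enters the ratio directly. The edgeR estimate of the dispersion is drawn toward that of genes of similar level, and the members lie far below their parents in level. Other genes at the level of the members were not compared, so the part of level in these differences was not tested.

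**Figure D2:**
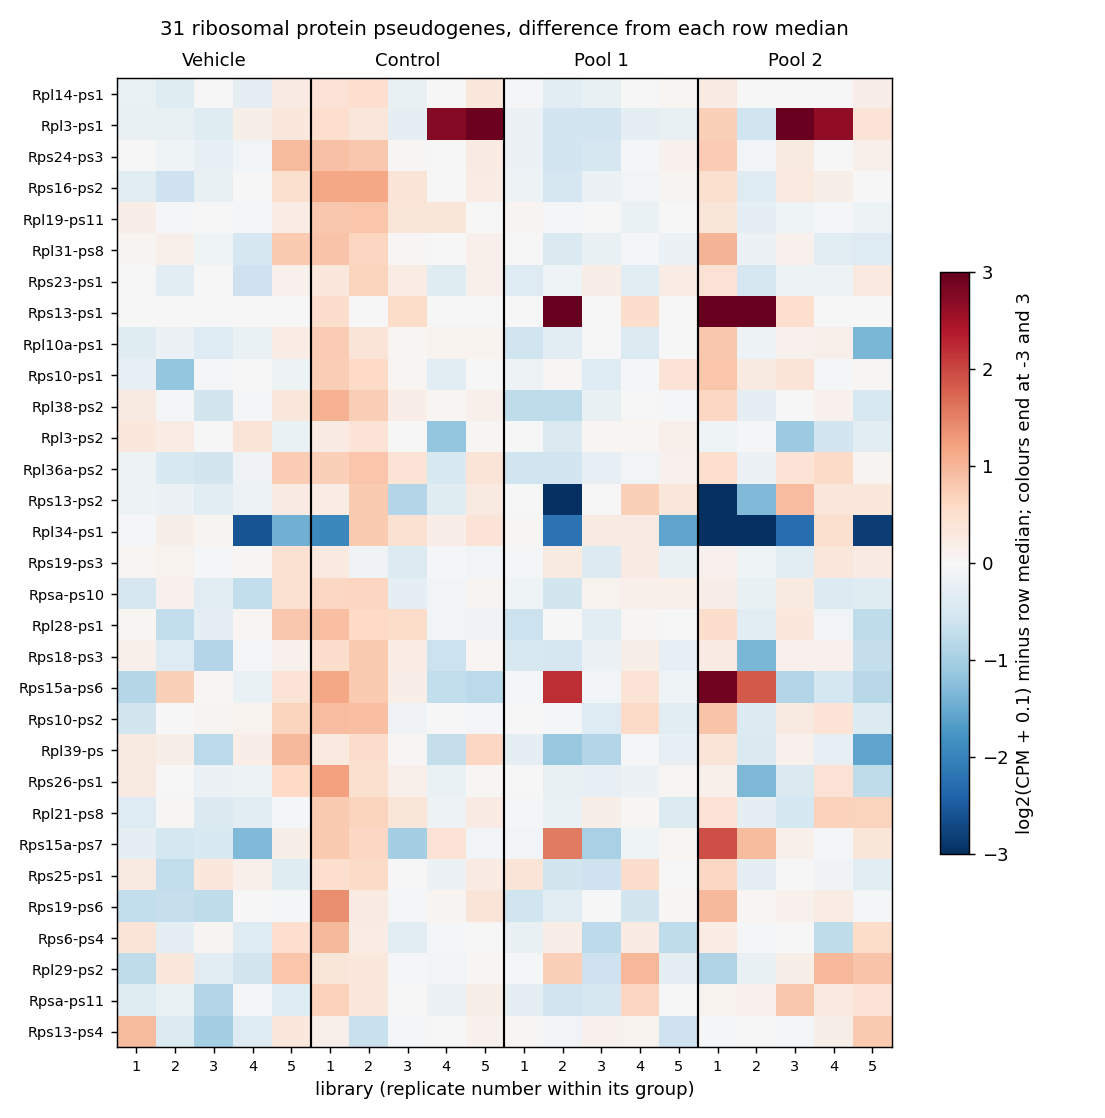
Heat map of the 31 members with a mean normalized count of 10 or more (rows) in the 20 libraries (columns, by group and replicate), as log2(CPM + 0.1) minus the median of the row. Rps13-ps1 is high in Pool 1 replicate 2 and Pool 2 replicates 1 and 2, where Rps13-ps2 is low in Pool 1 replicate 2 and Pool 2 replicate 1.

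A small number of members had separate levels that did not follow the groups. The genotype of the mice at these copies was not analysed here, and its part in the levels, and in the fold changes between groups that rest on them, was not tested. Rps13-ps1, a copy of the gene of a small subunit protein at chr8:87047689-87048226, was counted almost exclusively in 3 libraries. It had 231 counts in Pool 1 replicate 2, 473 in Pool 2 replicate 1 and 151 in Pool 2 replicate 2. The other 17 libraries held 4 counts in all, 1 each in Control replicates 1 and 3, Pool 1 replicate 4 and Pool 2 replicate 3. In those 3 libraries the level was 10.4, 21.6 and 5.88 CPM.

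Rps13-ps2, at chr7:88530446-88530898, matches Rps13 over all its 453 bases. It had 32, 31, 29, 31 and 39 counts in Vehicle replicates 1 to 5 and 40, 68, 17, 29 and 42 in Control. In Pool 1 it had 38, 1, 31, 59 and 47 counts and in Pool 2 1, 14, 71, 47 and 45. Its 3 lowest libraries were those in which Rps13-ps1 was counted. Rps13-ps2 and the other members named in this and the next 5 paragraphs, apart from Rps13-ps1 and Rpl3-ps1, were chosen after their values were seen, as were Rpl28-ps1, Rps19-ps3, Rps13-ps4 and Rpl13-ps1.

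All Rps13 copies together took 16.0% of the counts of Rps13 and its copies in Pool 1 replicate 2 (95% Wilson interval 14.2 to 17.9), 18.4% in Pool 2 replicate 1 (16.9 to 19.9) and 11.4% in Pool 2 replicate 2 (9.90 to 13.1). In the other 17 libraries the share was 1.76 to 4.18%. Intervals on shares cover counting error only. Rps13 itself was at 56.9 CPM in Pool 1 replicate 2, 98.2 in Pool 2 replicate 1 and 53.3 in Pool 2 replicate 2, and it ranged from 52.2 to 127.9 CPM in the other libraries.

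Of the copies of Rps15a, a small subunit gene, 5 were highest in the same libraries. Rps15a-ps6, at chr11:6172644-6173036, had 56 counts in Pool 1 replicate 2, 89 in Pool 2 replicate 1 and 49 in Pool 2 replicate 2, against 5 to 26 elsewhere. Rps15a-ps8, at chr4:53791070-53791456, had 8, 29 and 7 counts in these 3 libraries, 1 count in Vehicle replicate 1 and in Control replicate 1, and 0 in all others. This copy matches Rps15a at 357 of 387 bases, and 90.5% of its windows are unique. Rps15a-ps7 had 36, 46 and 26 counts in these 3 libraries and at most 20 elsewhere, Rps15a-ps4 18, 26 and 16 and at most 12, and Rps15a-ps5 27, 24 and 10 and at most 6. The 7 Rps15a copies together took 7.47% (6.41 to 8.69), 8.28% (7.32 to 9.35) and 4.06% (3.40 to 4.84) of the Rps15a family counts there, and 0.776 to 1.93% in the other 17 libraries.

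These 3 libraries were the highest of all 20 for 7 of the 101 members whose mean normalized count was 1 or more. They were Rps13-ps1, Rps15a-ps4 to Rps15a-ps8 and Rplp0-ps1, a copy of the gene of a large subunit stalk protein. Rplp0-ps1 had 3, 9 and 6 counts there and 0 to 3 elsewhere. Of 16664 genes with a mean count of at least 10, members included, 36 had the same 3 highest libraries after scaling by total counts. The share of all genes at the cutoff used for the members is not given here.

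Rpl3-ps1 was high in other libraries. It had 40, 39, 38, 52 and 54 counts in Vehicle and 64, 64, 35, 352 and 361 in Control. It had 43, 29, 27, 38 and 41 in Pool 1 and 73, 33, 388, 313 and 62 in Pool 2. Thus 4 libraries, Control replicates 4 and 5 and Pool 2 replicates 3 and 4, stood at 313 to 388 counts and the other 16 at 27 to 73. The Rpl3 copies took 6.41 to 7.62% of the Rpl3 family counts in these 4 libraries and 1.25 to 2.18% in the other 16. Rpl3-ps2, at chrX:74170653-74171866 with 10 mismatches to Rpl3, had 18, 40, 18 and 27 counts in these 4 libraries and 28 to 58 in the others.

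Rpl34-ps1 divided the libraries in a further way. It had 42, 48, 48, 5 and 13 counts in Vehicle, 9, 81, 55, 53 and 55 in Control, 46, 7, 45, 50 and 13 in Pool 1 and 2, 2, 7, 62 and 4 in Pool 2. It thus had at most 13 counts in 9 libraries, spread over all groups, and at least 42 in 11. Rpl34, the gene of a large subunit protein, ranged from 39.4 to 99.8 CPM. In Pool 2 replicate 1, with 2 counts of Rpl34-ps1, Rpl34 was at 99.8 CPM, and in Vehicle replicate 2, with 48 counts, at 39.8 CPM.

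**Figure D3:**
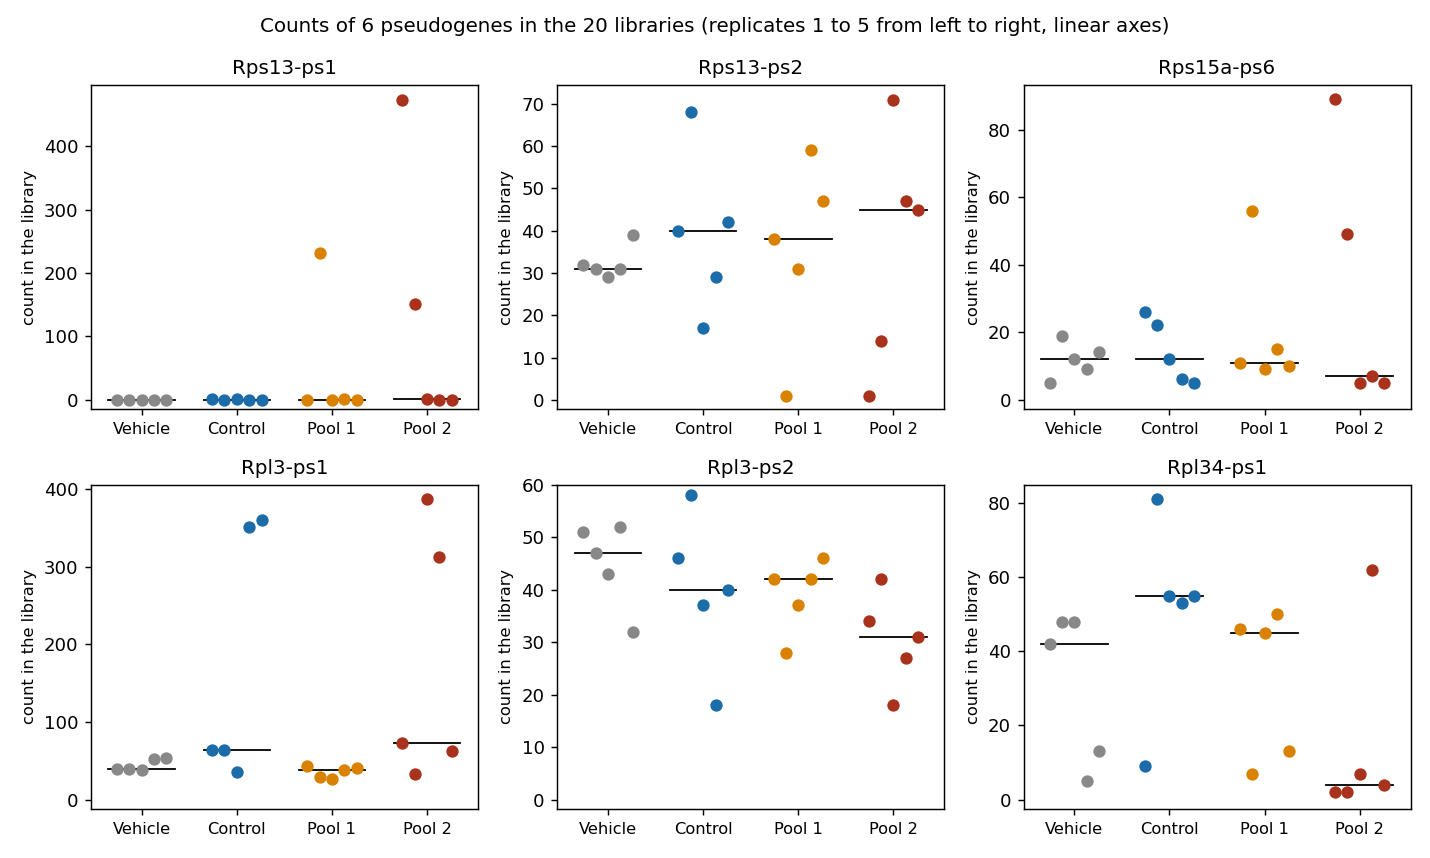
Counts per library of Rps13-ps1, Rps13-ps2, Rps15a-ps6, Rpl3-ps1, Rpl3-ps2 and Rpl34-ps1 in the 4 groups, with points for libraries and bars for group medians. Rps13-ps1 is at 151 to 473 counts in 3 libraries and at 0 or 1 in the other 17, and Rpl3-ps1 at 313 to 388 in 4 libraries and 27 to 73 in the other 16.

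The summed level of the members followed that of the parents across libraries. The members summed to 52.1, 47.4, 46.8, 47.5 and 70.2 CPM in Vehicle and 92.8, 83.8, 56.4, 62.9 and 73.8 in Control. They summed to 48.1, 56.3, 45.9, 56.4 and 51.9 CPM in Pool 1 and 104.6, 54.4, 70.5, 67.2 and 51.2 in Pool 2. The means were 52.8 ± 9.96 (SD, n = 5), 73.9 ± 14.8, 51.7 ± 4.72 and 69.6 ± 21.2. Pool 2 replicate 1 and Control replicates 1 and 2 were the 3 highest libraries both here and in the sum of the 50 parents. The parents summed to 4740 ± 632 CPM in Vehicle, 5589 ± 1034 in Control, 4775 ± 602 in Pool 1 and 5404 ± 984 in Pool 2. The members thus amounted to 1.11 ± 0.112%, 1.32 ± 0.114%, 1.10 ± 0.167% and 1.27 ± 0.195% of the parents, and without Rps13-ps1 and Rpl3-ps1 to 1.07, 1.18, 1.01 and 1.05%.

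Without Rps13-ps1 and Rpl3-ps1, the members' sum and the parents' sum had a Pearson's r of 0.87 over the 20 libraries (permutation p = 1e-05, the smallest that the resamples can give, adjusted p = 2e-05 over 4 relations) and a Spearman's rho of 0.73 (p = 0.00043). Leaving out the 2 libraries farthest from the median gave an r of 0.79, and deviations from the group means gave 0.86. With these 2 members included, r was 0.81 and rho 0.62, and r was 0.66 without the 2 farthest libraries. By permutation, the sum without these 2 members had an r of -0.23 with reads like ribosomal RNA (p = 0.322) and of -0.39 with genes silent in brain (p = 0.0896). Both sums come from the same libraries and from genes close in sequence. The counting option named by the study, described below, counts only reads with a single placement. The part of read placement in this relation was not tested.

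**Figure D4:**
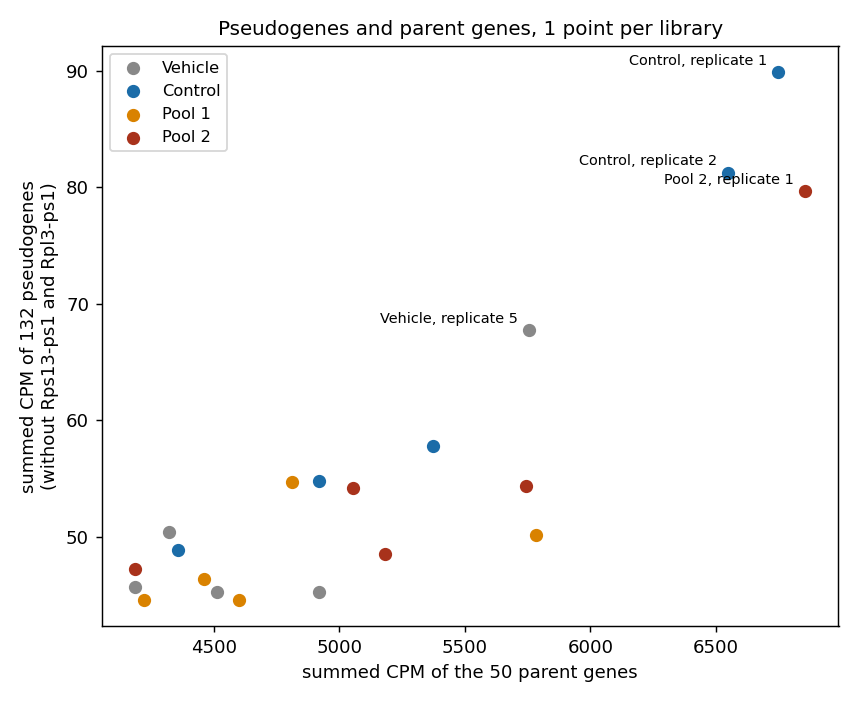
Summed CPM of 132 ribosomal protein pseudogenes, leaving out Rps13-ps1 and Rpl3-ps1 (vertical axis), against summed CPM of their 50 protein coding parents (horizontal axis), 1 point per library, marked by group. Pearson's r over the 20 libraries is 0.87.

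Single members varied in how far they followed their parent. Over the 20 libraries, the median r of the 31 members with their parent was 0.53, and 7 had a negative r. For 6 of the 31, set apart after their values were seen because their libraries fell into separate levels, an r over all libraries spans those levels and carries no test here, and 5 of the 7 negative values were theirs. The lowest of the 31 was that of Rpl34-ps1 with Rpl34, at -0.66, which joins its levels of 9 and 11 libraries. Of the other 25, 23 had a positive r, with a median of 0.61, and 13 had an adjusted p below 0.05 by permutation for both Pearson's r and Spearman's rho. Rps16-ps2 had an r of 0.90 and a rho of 0.88, Rps24-ps3 0.89 and 0.86, and Rpl14-ps1 0.85 and 0.80. Without the 2 libraries farthest from the median these r were 0.88, 0.86 and 0.82. The lowest r of these 25 was -0.25, for Rps13-ps4, and Rps10-ps2 had -0.04.

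For those set apart, the relation to the parent was also computed within 1 level, in 6 relations. The libraries were taken by the counts of the members themselves after these were seen. The p-values of these relations are therefore conditioned on that choice and decide nothing beyond the libraries taken. Differences between the relations were not tested. Rpl34-ps1 had an r of 0.86 with Rpl34 and a rho of 0.71 over the 11 libraries with at least 42 counts (permutation p = 0.00131 and 0.0187, adjusted p = 0.00786 and 0.0338), and an r of 0.64 without the 2 farthest. Over the 9 libraries with at most 13 counts its r was 0.03 and its rho 0.05 (exact permutation p = 0.933 and 0.912). In the 16 libraries with under 100 counts, Rpl3-ps1 had an r of 0.68 and a rho of 0.68 (permutation adjusted p = 0.00902 and 0.0153), and 0.73 without the 2 farthest. Leaving out Pool 1 replicate 2 and Pool 2 replicates 1 and 2, over 17 libraries, Rps13-ps2 had an r of 0.66 and a rho of 0.70 (permutation adjusted p = 0.00902 and 0.0142), and Rps15a-ps7 0.61 and 0.56 (0.0150 and 0.0338). Without the 2 farthest libraries these r were 0.63 and 0.43. Rps15a-ps6 had an r of 0.02 and a rho of -0.03, and an r of -0.27 without the 2 farthest. Rps13-ps1 had too few counts outside its 3 libraries for such a relation.

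Comparisons between groups used the threshold of the study, a log2 fold change of 0.3 or more in either direction with an unadjusted p below 0.05, in an edgeR quasi-likelihood fit of all genes. The study also left genes with a mean normalized count below 10 out of its lists. Such members were kept here, and counts for those at 10 or more are given beside the total. Members past the threshold are named "called higher" or "called lower". No member had a Benjamini-Hochberg adjusted p below 0.05 in edgeR or DESeq2 in any comparison. The smallest edgeR adjusted p of a member was 0.917 for Pool 1 versus Control, 0.479 for Pool 2 versus Control, 0.734 for Control versus Vehicle and 0.359 for Pool 2 versus Pool 1. At an unadjusted p below 0.05 edgeR gave 21, 10, 15 and 7 members and DESeq2 21, 9, 11 and 3. DESeq2 gave no adjusted p for 114, 58, 0 and 58 members. Control libraries enter 3 of these comparisons, which are therefore not independent of each other.

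For Pool 1 versus Control, 103 of the 134 members had a negative log2 fold change, but few passed the threshold. In all, 20 were called lower and 1 higher, while 1.99% of all genes tested were called lower and 1.48% higher. The called share of the members was thus 14.9% in the lower direction, against 12% of the parents and 5.74% of processed pseudogenes other than the members. The median log2 fold change was -0.58 over the members, -0.24 over the parents, -0.18 over 1933 other processed pseudogenes and -0.005 over all genes, and all 50 parents were negative. The Rpl copies had 12 called lower and 1 higher with a median of -0.71, and the Rps copies 8 and 0 with a median of -0.36. Among the 31 members with a mean normalized count of 10 or more, 9 were called lower and none higher, with a median of -0.52. The other 11 called lower thus had a mean normalized count below 10. DESeq2 called 19 members lower and 2 higher, and of all genes 400 and 264. Without Control replicate 1, edgeR called 10 lower and 3 higher with a median of -0.28, and without Control replicate 2, 13 were called lower. Of all genes, these fits called 397 and 404 lower, against 502 in all libraries. Members called higher were 0 without Control replicate 4 or 5 or Pool 1 replicate 2, and 2 without Pool 1 replicate 1 or 3. All genes called higher were then 481, 446, 323, 456 and 367, against 374 in all libraries.

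Rps16-ps2, at chr5:129128077-129128517, had 119, 134, 66, 59 and 61 counts in Control and 51, 36, 42, 51 and 59 in Pool 1. The groups met at 59, and Control replicates 1 and 2 stood highest. The log2 fold change was -0.85 ± 0.25 (SE, edgeR adjusted p = 0.917, as for each member called in this comparison). Rpl38-ps2, at chr6:140746960-140747172, a copy of a large subunit gene with a known role in patterning of the mouse embryo, had 76, 68, 40, 42 and 40 counts in Control and 22, 20, 28, 37 and 37 in Pool 1. These groups did not overlap, and the log2 fold change was -0.86 ± 0.26.

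Rps24-ps3, at chrX:79195047-79195448, had 164, 175, 87, 97 and 106 counts in Control and 85, 58, 56, 87 and 104 in Pool 1. Control replicates 1 and 2 were again above the other Control libraries, and the other 3 overlapped with Pool 1. The log2 fold change was -0.67 ± 0.24. Rpl19-ps11, a copy of a large subunit gene at chr8:19492936-19493526, had 72, 82, 51, 59 and 41 counts in Control and 47, 38, 37, 36 and 43 in Pool 1, with a log2 fold change of -0.57 ± 0.19. Rpl14-ps1 had 222, 265, 136, 183 and 206 counts in Control and 177, 130, 130, 171 and 185 in Pool 1. Its log2 fold change of -0.33 ± 0.15 was close to the threshold, and the groups overlapped.

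Rpl10a-ps1, at chr1:64993951-64994604, had 70, 61, 41, 49 and 44 counts in Control and 29, 32, 38, 31 and 43 in Pool 1. Its parent encodes a protein of the large subunit. The groups did not overlap in CPM, and the log2 fold change was -0.58 ± 0.28. Rpl36a-ps2, at chr3:145879020-145879340, had 55, 67, 43, 26 and 44 counts in Control and 23, 21, 25, 32 and 39 in Pool 1 (-0.72 ± 0.28), and Rps19-ps6, at chr12:110898114-110898551, a copy of the gene mutated most often in Diamond-Blackfan anaemia, 32, 15, 10, 13 and 15 against 7, 8, 10, 7 and 12 (-0.92 ± 0.35). Both overlapped between the groups.

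Rpl3-ps1 was called lower in Pool 1 with a log2 fold change of -2.26 ± 0.71, on its counts of 352 and 361 in Control replicates 4 and 5. Rpl31-ps8, a large subunit copy at chr15:90764279-90764656, had 74, 72, 40, 45 and 45 counts in Control and 44, 29, 31, 40 and 38 in Pool 1. It did not overlap between the groups in CPM but was not called (-0.58). The study, which used DESeq2, lists Rpl31-ps8 among the genes lower in both pools than in Control. Its list also holds Rpl19-ps11, Rpl38-ps2, Rpl7a-ps7, Rps16-ps2 and Rps6-ps2. In the edgeR fit, Rpl19-ps11 and Rps16-ps2 were called lower in both pools, Rpl38-ps2 in Pool 1 only and Rpl31-ps8 in neither. The member called higher, Rpl13-ps1, had 3, 3, 4, 1 and 0 counts in Control and 5, 9, 4, 5 and 5 in Pool 1. Of the parents, Rpl19 (-0.30), Rps24 (-0.36), Rps26 (-0.36), Rpl38 (-0.38), Rpl17 (-0.35) and Rpl36a (-0.35) were called lower.

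For Pool 2 versus Control, 93 of the 134 members had a negative log2 fold change. Of the 134 members, 6 were called lower and 4 higher, or 4.48% and 2.99%. The shares were 1.01% and 5.2% of all genes, and 3.72% and 1.97% of the other processed pseudogenes. The median log2 fold change was -0.29 over the members, -0.06 over the parents and -0.16 over the other processed pseudogenes. Leaving out 1 library moved the members' median by a wide margin without a change of sign, as given below. Among the 31 members at 10 or more, 3 were called lower and 1 higher. No parent was called, and none had an unadjusted edgeR p below 0.05. DESeq2 called 6 members lower and 3 higher, and of all genes 212 and 1072. Without Control replicate 1, or without Pool 2 replicate 5, edgeR called 3 members lower, without Pool 2 replicate 2 it called 2, and without Control replicate 4 it called 10. Of all genes, these fits called 226, 273, 243 and 496 lower, against 255 in all libraries. Members called higher fell to 2 without Control replicate 3 or 5 and to 0 without Pool 2 replicate 1. All genes called higher were then 1115, 1362 and 835, against 1311 in all libraries.

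Rps13-ps1 was called higher in Pool 2 than in Control. It had 625 counts in Pool 2 and 2 in Control, a ratio of 308 after scaling by library size with a 95% counting interval from 84.9 to 2548, which does not cover the spread between libraries. That spread was large, since Pool 2 replicates 4 and 5 had 0 counts and replicate 3 had 1. The edgeR adjusted p was 0.559. Pool 1 to Control the ratio was 118 (32.3 to 982), all but 1 of its 232 counts coming from Pool 1 replicate 2, and it was not called.

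The other members called higher in Pool 2, Rps15a-ps3, Rps15a-ps5 and Rps15a-ps8, had mean normalized counts below 10. Among those called lower, Rpl19-ps11 had 51, 38, 39, 42 and 37 counts in Pool 2, overlapping with Control, and a log2 fold change of -0.57 ± 0.18 (edgeR adjusted p = 0.479). Rps16-ps2 had 72, 45, 69, 63 and 53 counts (-0.55 ± 0.24). Rps26-ps1, a copy of a small subunit gene at chr8:107439131-107439579, had 37, 24, 16, 14 and 15 counts in Control and 16, 5, 11, 22 and 8 in Pool 2 (-0.78 ± 0.35). Rpl34-ps1 had a log2 fold change of -1.72 ± 0.83 and was not called.

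For Control versus Vehicle, 99 of the 134 members had a positive log2 fold change, but few passed the threshold. In all, 15 were called higher and none lower, or 11.2% in the higher direction, against 1.7% and 3.41% of all genes. DESeq2 gave 11 and 0, and of all genes 345 and 741. The median log2 fold change was 0.43 over the members and 0.23 over the parents, of which 49 of 50 were positive. The other processed pseudogenes had a median of 0.17, and 4.55% of them were called higher, against 24% of the parents. The members' median also moved when 1 library was left out, over the range given below. The calls fell on 11 Rpl and 4 Rps copies, and on 8 of the 31 members with a mean normalized count of 10 or more. Of the parents, 12 were called higher, among them Rps13 (0.50), Rpl12 (0.42) and Rps12 (0.41). Members called higher fell to 4 without Control replicate 1 and to 8 without Vehicle replicate 3, and 3 and 1 members were called lower without Control replicate 1 and 2, respectively. Of all genes, 266 and 394 were then called higher, against 427 in all libraries, and 749 and 696 lower, against 858.

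Rps16-ps2 had 44, 34, 49, 52 and 70 counts in Vehicle (0.79 ± 0.25, edgeR adjusted p = 0.734), and its lowest Control values lay inside the Vehicle range. Rps19-ps6 had 6, 6, 6, 11 and 10 counts in Vehicle (1.10 ± 0.36), and Rpl19-ps11 49, 40, 44, 39 and 45 (0.47 ± 0.18). Rps10-ps1, at chr3:95622278-95622772, had 33, 16, 40, 38 and 32 counts in Vehicle and 64, 65, 38, 33 and 38 in Control (0.57 ± 0.26). Rpl21-ps8 had 10, 14, 10, 10 and 12 counts in Vehicle and 24, 25, 17, 13 and 16 in Control (0.74 ± 0.30). In both, the highest values were those of Control replicates 1 and 2. Rpl3-ps1 had a log2 fold change of 1.93 ± 0.70 and was called. Rpl14-ps1, with 152, 132, 183, 138 and 188 counts in Vehicle, had 0.33 ± 0.15.

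Between Pool 2 and Pool 1, 5 members were called higher and 2 lower, against 5.66% and 1.16% of all genes. The median log2 fold change was 0.34 over the members and 0.19 over the parents, all 50 of which were positive. No parent was called or had an unadjusted edgeR p below 0.05. Members called higher rose to 10 without Pool 1 replicate 2 and to 8 without Pool 1 replicate 5 or Pool 2 replicate 5, and fell to 2, with a median of 0.11, without Pool 2 replicate 1. Of all genes, these fits called 1302, 1635, 1534 and 924 higher, against 1426 in all libraries. Members called lower fell to 1 without Pool 1 replicate 1 or 4 or Pool 2 replicate 1 or 3. All genes called lower were then 386, 284, 266 and 278, against 292 in all libraries. Rpl3-ps1 was called higher (2.24 ± 0.71, edgeR adjusted p = 0.359), and so was Rpl36a-ps2, with 46, 33, 47, 53 and 36 counts in Pool 2 (0.58 ± 0.28). The other 5 called members had mean normalized counts below 10. Rps13-ps1 was 2.61 times as high in Pool 2 as in Pool 1 by counting alone (2.24 to 3.04), with libraries at 0 or 1 count in both groups. Most of its Pool 2 counts were those of Pool 2 replicate 1, so this difference rests on that library. The log2 ratio of Rps13-ps1 to its parent differed by 1.21 between these groups in all libraries. Without Vehicle replicate 4 and Pool 2 replicate 1 it differed by 0.02.

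**Figure D5:**
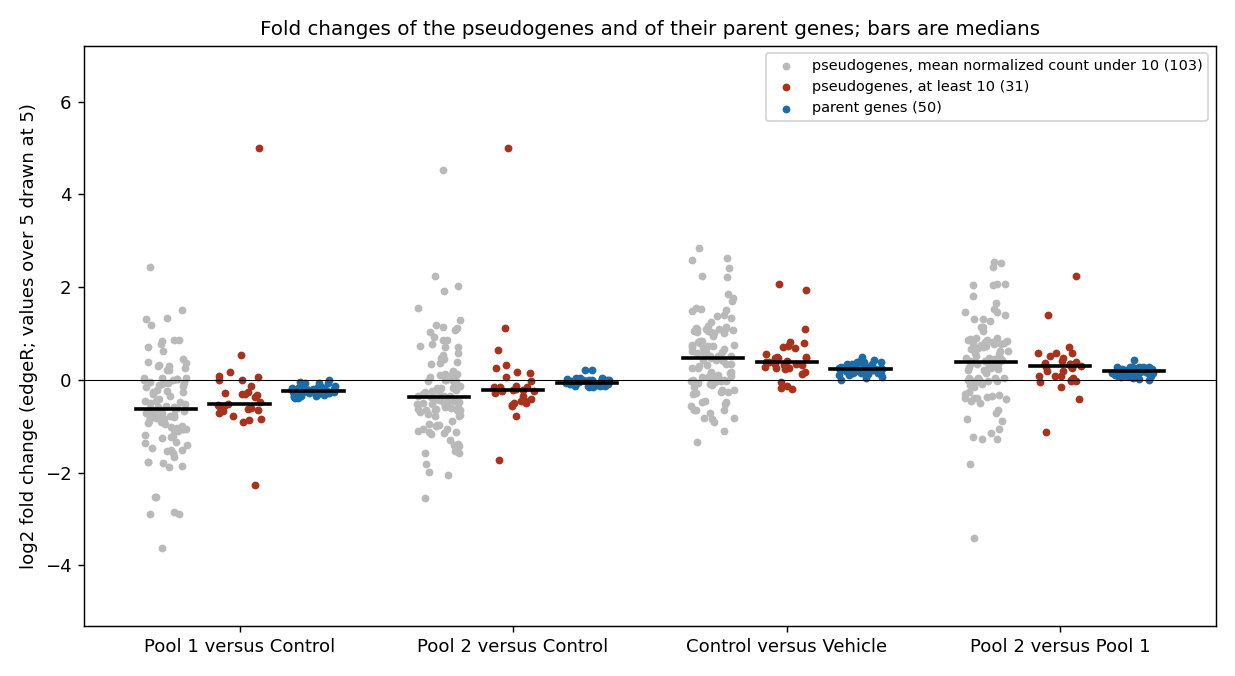
Log2 fold changes of members with a mean normalized count under 10, members with at least 10 and parents in the 4 comparisons, with 1 point per gene, bars for medians and values over 5 drawn at 5. The medians over all members are -0.58 for Pool 1 versus Control, -0.29 for Pool 2 versus Control, 0.43 for Control versus Vehicle and 0.34 for Pool 2 versus Pool 1.

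The calls of members lower in Pool 1 or Pool 2 than in Control, or higher in Control than in Vehicle, rested in large part on Control replicates 1 and 2. Pool 2 versus Pool 1 holds no Control library. Control replicates 1 and 2 were the highest libraries of all 20 for 7 of the 31 members, among them Rpl14-ps1, Rps16-ps2, Rpl38-ps2 and Rpl19-ps11. The share of all genes highest in these libraries is not given here. In the summed CPM of the parents, too, these libraries ranked 2 and 3 from the highest. With both left out, Pool 1 versus Control had 3 members called lower and 4 higher with a median log2 fold change of -0.14. Pool 2 versus Control then had 1 and 6 with a median of 0.18, and Control versus Vehicle 5 and 4 with a median of 0.10. Of all 25190 genes, the same fits called 465 lower and 404 higher, 274 and 1138, and 628 and 253, in this order. Leaving out both ended the calls given above for Rpl10a-ps1, Rpl14-ps1, Rpl19-ps11, Rpl21-ps8, Rpl36a-ps2, Rpl38-ps2, Rps10-ps1, Rps16-ps2, Rps19-ps6, Rps24-ps3 and Rps26-ps1 in comparisons with Control, but not those of Rpl3-ps1. Fewer libraries enter these fits, so a lost call alone does not show a smaller fold change. The call of Rps13-ps1 in Pool 2 versus Control ended too, but its log2 fold change was 8.12 and had not shrunk. In all libraries the highest of any member called higher there was 7.93.

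Leaving out 1 library also ended some calls. In Pool 1 versus Control, that of Rpl14-ps1 ended without Control replicate 1, 2 or 5 or Pool 1 replicate 2 or 3 (-0.31 to -0.24), and that of Rpl10a-ps1 without Control replicate 1 or 2 or Pool 1 replicate 1, 2 or 4 (-0.56 to -0.44). The call of Rpl36a-ps2 ended without Control replicate 2 (-0.60) and that of Rps19-ps6 without Control replicate 1 (-0.54). The calls of Rps16-ps2, Rpl38-ps2, Rps24-ps3, Rpl19-ps11 and Rpl3-ps1 in this comparison stood with each library left out singly.

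In Control versus Vehicle, the call of Rpl14-ps1 ended without Vehicle replicate 1, 2 or 4 or Control replicate 1, 2 or 5 (0.25 to 0.31). That of Rps10-ps1 ended without Vehicle replicate 1 or 2 or Control replicate 1 or 2 (0.40 to 0.58). Rpl19-ps11 was no longer called without Control replicate 1 (0.38) or 2 (0.37), Rpl21-ps8 without Control replicate 1 (0.62) or 2 (0.66), and Rpl3-ps1 without Control replicate 5 (1.44). In Pool 2 versus Control, the call of Rps16-ps2 ended without Control replicate 1 or 2 or Pool 2 replicate 2 or 5 (-0.51 to -0.39). That of Rps26-ps1 ended without Control replicate 1 or 2 or Pool 2 replicate 2, 3 or 5 (-0.77 to -0.46). The call of Rps13-ps1 ended without Pool 2 replicate 1 (6.06), and its log2 fold change was -0.22 without Pool 1 replicate 2 and Pool 2 replicates 1 and 2 together. These are the libraries that hold its counts, so that 1 count in Pool 2 and 2 in Control remained. In Pool 2 versus Pool 1, the call of Rpl36a-ps2 ended with DESeq2 and without Pool 1 replicate 1, 2, 3 or 4 or Pool 2 replicate 1, 3 or 4 (0.49 to 0.63).

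Rps23-ps1 and Rpl31-ps8 were among the 10 members with the highest mean CPM and were called in no comparison of the edgeR fit. Rps23-ps1, at chr3:37714740-37715164, is a copy of the gene of a protein at the decoding site. It had 44, 34, 47, 27 and 44 counts in Vehicle and 53, 76, 48, 36 and 47 in Control. In Pool 1 it had 35, 38, 45, 34 and 53 counts and in Pool 2 56, 33, 40, 40 and 54. The 4 groups overlapped, with Control replicate 2 the highest library. Rpl31-ps8 had 45, 46, 40, 28 and 68 counts in Vehicle and 82, 40, 47, 34 and 31 in Pool 2, where replicate 1 was the highest of all 20 libraries.

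The log2 ratio of member to parent was compared for 16 members, which include those named above for their calls in the same libraries, so directions and p-values of these members are not independent of that choice. The exact two-sided permutation test has a smallest p of 0.00794 with 5 against 5 libraries. No ratio had an adjusted p below 0.05 in the 4 comparisons. For Pool 1 versus Control, 4 had an unadjusted exact p below 0.05, and each of these was named for its call in that comparison. They were Rpl3-ps1 (-1.56), Rps24-ps3 (-0.30), Rps16-ps2 (-0.41) and Rpl38-ps2 (-0.44). For Pool 2 versus Control there were 2, Rps16-ps2 (-0.36) and Rpl19-ps11 (-0.40), and for Control versus Vehicle also 2, Rps16-ps2 (0.38) and Rps19-ps6 (0.61). For Pool 2 versus Pool 1 there were 3, Rpl3-ps1 (1.58), Rps24-ps3 (0.20) and Rpl36a-ps2 (0.37). Without Vehicle replicate 4 and Pool 2 replicate 1, Rps24-ps3 (0.19, exact p = 0.111) and Rpl36a-ps2 (0.40, exact p = 0.0556) were no longer among them. Their differences stayed about as large, with fewer libraries.

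The libraries also differed in other RNA. Reads like ribosomal RNA made up 663 to 5115 CPM in Vehicle, 571 to 1844 in Control, 1752 to 13967 in Pool 1 and 3434 to 9582 in Pool 2. All 5 genes of that list were called higher in both pools than in Control. Choroid plexus markers (Ttr, Kl, Clic6 and Folr1) summed to 204 to 8856, 113 to 2262, 103 to 290 and 91.0 to 1473 CPM in the same order, none of them at 0. Hippocampal neuron markers summed to 1873 to 2868 CPM over all libraries, with every one of the 7 present. Pool 2 replicate 1, the library with the highest sum of members, was also the highest in microglia markers (745 CPM against 235 to 357 in the others), blood markers (171 against 32.8 to 90.6), astrocyte markers (5117 against 2825 to 4305) and endothelial markers (167 against 54.5 to 140). Oligodendrocyte markers (5319 against 2076 to 6658) and thalamus markers (93.6 against 69.9 to 414) in it lay within the range of the others. The part of these differences in the calls was not tested.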

How the data were processed

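The authors sequenced stranded libraries of polyadenylated RNA as 50-nt single reads, used STAR for alignment to GRCm38 and for counting by GENCODE gene and, per the labels, checked reads with FastQC 0.11.5. The deposited unit is the raw count, summed over sequencing rounds, for genes with at least 10 counts in total. The counting option of STAR that was named, GeneCounts, counts to genes only reads with a single placement, and which of its strand columns was deposited is not given in the sources used here. Both bear directly on pseudogenes.

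Members were chosen by gene type and name, and members and lists were chosen with earlier results of these data known. Counts were normalized by TMM and fitted over all 20 libraries and 25190 genes with edgeR 4.0.16 (robust quasi-likelihood) in R 4.3.3, with Benjamini-Hochberg adjustment over all genes. The script was tested on simulated data. DESeq2 1.42.0, filters, a replicate block and leaving out libraries were alternatives. CPM use library totals multiplied by the TMM factors, and total counts alone where all genes were ranked over libraries. Members named are the 10 with the highest mean CPM, up to 5 per direction and comparison with the smallest p, any with an adjusted p below 0.05, and the 5 highest relative to their parent, all but the first with a mean normalized count of 10 or more, and their parents. Ratios and correlations used log2 CPM with a prior count of 2. Sequences, positions and lengths came from GENCODE M21 (GRCm38), aligned to parent transcripts in Biopython 1.88 (match 1, mismatch -1, gap open -3, extension -1). Names of genes lowest in the libraries that counted Rps13-ps1 are not reported here, apart from Rps13-ps2.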

Additional observations from a re-analysis of the deposited data

Results flagged for a closer look

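Values were set apart where the gap between the highest or lowest library of a group of 5 and the nearest other exceeded Dixon's 95% critical value. This held in 17 of 108 groups examined, where chance alone gives about 1 in 20. The members examined include Rpl34-ps1 and the Rps15a copies, which were chosen because their libraries had been seen to stand apart, so the 17 cannot be read against that share. All values are in CPM. Rps13-ps1 stood apart in Pool 1 replicate 2 (10.4) and Pool 2 replicate 1 (21.6). The Rps15a copies stood apart in the same libraries, with Rps15a-ps4 at 0.807, Rps15a-ps5 at 1.21, Rps15a-ps6 at 2.51, Rps15a-ps7 at 1.61 and Rps15a-ps8 at 0.359 in Pool 1 replicate 2, and Rps15a-ps5 at 1.1 and Rps15a-ps8 at 1.33 in Pool 2 replicate 1. Pool 2 replicate 1 was also the highest of its group for Rpl31-ps8 (3.75) and Rps19-ps6 (1.05).

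Vehicle replicate 5 was the highest of its group for Rps24-ps3 (7.68), Rpl36a-ps2 (2.56) and the sum of all members (70.2). Vehicle replicate 2 was the lowest for Rps10-ps1 (0.693), Control replicate 1 the highest for Rps19-ps6 (1.43) and Pool 2 replicate 4 the highest for Rpl34-ps1 (2.59).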

How the results depend on the processing

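Leaving out 1 library at a time gave median log2 fold changes of the members from -0.66 to -0.28 for Pool 1 versus Control, -0.50 to -0.06 for Pool 2 versus Control, 0.24 to 0.59 for Control versus Vehicle and 0.11 to 0.43 for Pool 2 versus Pool 1, each keeping its sign. Members called lower numbered 10 to 28, 2 to 10, 0 to 3 and 1 to 3 in this order, and members called higher 0 to 3, 0 to 5, 4 to 20 and 2 to 10. Of all genes, the same fits called 397 to 768, 226 to 496, 659 to 1123 and 209 to 432 lower. All genes called higher were 313 to 481, 835 to 1436, 259 to 793 and 924 to 1635.

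Of the 134 members, filterByExpr left out 96 and a minimum mean normalized count of 10 left out 103. Calls under either filter thus cover fewer members, and a lower number alone does not show smaller differences. For Pool 1 versus Control, members called higher numbered 2 with DESeq2, with the 2 groups fitted alone and with the default spread. They also numbered 2 in the 18 libraries other than Vehicle replicate 4 and Pool 2 replicate 1, and 0 with filterByExpr. All genes called higher were then 264, 404, 389, 373 and 178. Members called lower were 10 with filterByExpr and 8 with the minimum of 10, against 248 of 17293 and 247 of 16644 genes. For Pool 2 versus Control, members called higher fell to 0 with filterByExpr and in those 18 libraries and to 1 with the minimum of 10. All genes called higher were then 788, 852 and 852, in this order. For Control versus Vehicle, 8 were called higher with either filter, and of all genes 338 with filterByExpr and 239 with the minimum of 10. For Pool 2 versus Pool 1, those called higher fell to 1 with either filter, 3 with DESeq2 and 2 in the 18 libraries (median 0.11). Those called lower fell to 0 with the filters and DESeq2 and to 1 in the 18 libraries. With filterByExpr, the minimum of 10, DESeq2 and the 18 libraries, all genes called higher were 928, 979, 1187 and 985. All genes called lower were 225, 154, 244 and 262.

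With the replicate number as a block, members called higher and lower were 1 and 17, 4 and 6, 12 and 0, and 5 and 1 in the order of the first paragraph. All genes called higher and lower were 317 and 442, 1190 and 220, 358 and 695, and 1301 and 251. Correlations of same-numbered deviations ran from -0.32 to 0.26, so the numbers did not pair the libraries.

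The following were chosen after seeing the data. Without Control replicates 1 and 2, members called higher and lower were 4 and 3 (median -0.14), 6 and 1 (0.18), and 4 and 5 (0.10) in the first 3 comparisons. Over all 25190 genes these fits called 404 and 465, 1138 and 274, and 253 and 628. Without Pool 1 replicate 2 and Pool 2 replicates 1 and 2, members called higher were 0 in Pool 1 and in Pool 2 versus Control and 3 in Pool 2 versus Pool 1. Genes called higher over all 25190 were then 310, 700 and 662. Rps13-ps1 in Pool 2 versus Control, whose counts are almost all in these libraries, had -0.22. Over single members, 458 alternative values kept direction and side of the threshold, 85 fell under it, 3 passed it and 3 reversed. Beside Rps13-ps1 above these were 2 ratios to the parent that were not past the threshold, of Rps13-ps1 in Control versus Vehicle (0.20 with a prior count of 0.5) and of Rps10-ps1 in Pool 2 versus Pool 1 (-0.089 in the 18 libraries). Fewer genes or libraries enter the filters and left-out fits, and otherwise the cause was not tested. Most members have under 10 counts per library, which limits the size of change that can be seen.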

Other observations

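Some genes other than the ribosomal protein pseudogenes shared the extremes of the 3 libraries in which Rps13-ps1 was counted. Of 16664 genes with a mean count of at least 10, 33 that are no members had Pool 1 replicate 2 and Pool 2 replicates 1 and 2 as their 3 highest libraries, and 27 had them as their 3 lowest. Of the 27, 8 lie on chromosome 7 (29.6%), followed by 3 on chromosome 11 (11.1%), where chromosome 7 holds 7.89% and chromosome 11 7.62% of all these genes. Of the 33, 5 lie on chromosome 5 (15.2%) and 4 each on chromosomes 2 and 7 (12.1%). The 4 on chromosome 7 are Folh1, 4632427E13Rik, Gm35082 and Gm44763. The parents Rps13 (chr7:116331505-116334195) and Rps15a (chr7:118104372-118116188) lie on chromosome 7. These genes were chosen after their values were seen, and the counts carry no test.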
